A study of Mus musculus with 6 samples.

Results

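Transcript levels of 32 genes that carry pyruvate into the mitochondrion and turn the tricarboxylic acid cycle were compared in newborn mouse cortex with and without the amino acid transporter gene Slc7a5. The genes were taken from a list of cycle enzymes, pyruvate carriers, pyruvate dehydrogenase subunits, pyruvate carboxylase, malic enzymes and glutamate-linked enzymes, and were matched by gene symbol. The rule itself uses no measured value, but the list was drawn up with earlier results of these data known. All 32 were found among the 52550 gene identifiers counted, and all 32 passed the filter on low counts that left 14913 genes for testing. No member changed past the threshold. The smallest unadjusted p belonged to Idh1 and Mdh2, with differences of -20.9% and -17.2% in knockouts against controls. Sdhd had a larger but imprecise difference of -38.9%.

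Each library held polyadenylated RNA from 1 cortical hemisphere of a C57BL6/J pup at postnatal day 2. The control group was Slc7a5 fl/fl; Emx1Cre- (n = 3) and the knockout group was Slc7a5 fl/fl; Emx1Cre+ (n = 3), so both groups carry the floxed alleles, and the submitters also call the controls wild type. Within each group the titles letter the libraries A, B and C, and the submitters describe them as biological replicates. Cre recombinase under Emx1 control acts in the progenitors of cortical excitatory neurons and of many glial cells, and leaves most interneurons, microglia and vessels unrecombined, so a knockout hemisphere still holds cells with intact floxed alleles. The product of Slc7a5 is LAT1, a carrier of leucine and other large neutral amino acids at the cell membrane.

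In the cycle, acetyl groups made from pyruvate are joined to oxaloacetate and oxidised in the mitochondrial matrix, and the reduced cofactors feed the respiratory chain. In brain the cycle also supplies the carbon of glutamate, GABA and aspartate, and pyruvate carboxylase, an enzyme mainly of astrocytes, refills it. Several steps have a cytosolic and a mitochondrial isozyme, which serve the exchange of metabolites and reducing equivalents across the inner membrane.

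Gene counts per library were 8249436 to 10372582. Levels below are in CPM, read counts scaled by library size with the TMM method, and are listed in the order A, B, C. For Slc7a5 they were 20.2, 40.7 and 26.1 CPM in control libraries and 15.6, 9.37 and 11.4 CPM in knockout libraries. Every knockout was below every control, but the log2 change of -1.25 ± 0.28 (SE) missed the threshold in the edgeR quasi-likelihood test (adjusted p = 0.400) and passed it in DESeq2 (adjusted p = 3.67e-04). The labels do not name the floxed exons, so a count over the whole gene checks the deletion only in part. All 7 markers of cortical projection neurons were present in the 6 libraries, with 5 lower and 2 higher in knockouts. With the letter as a block, edgeR called Emx1 and Slc17a7 lower (adjusted p = 0.00018 and 0.016), DESeq2 called Emx1, and the group-only fit called 0 of the markers. Emx1 was at 17.1, 25.4 and 13.6 CPM in controls and 7.92, 10.9 and 8.21 CPM in knockouts. Only the knockout group carries Emx1Cre, so for Emx1 the Cre allele and the loss of Slc7a5 cannot be told apart in this design. Reads on no annotated exon of the strand counted were 22.5 to 26.5% of the reads mapped to 1 place in controls and 27.4 to 27.9% in knockouts. The summed level of 7 radial glia and intermediate progenitor markers was 324 to 367 CPM in controls and 374 to 404 CPM in knockouts, with 7 of 7 higher. For 8 oligodendrocyte lineage markers it was 282 to 334 and 251 to 270 CPM, with 7 of 8 lower. Sums of 6 astrocyte markers overlapped (439 to 541 and 450 to 524 CPM), as did those of 7 projection neuron markers (2763 to 3095 and 2661 to 3014 CPM), 9 interneuron markers (1359 to 1440 and 1360 to 1712 CPM) and 8 microglial markers (114 to 143 and 127 to 176 CPM). Within these lists, 8 of 9 interneuron markers were higher in knockouts, 4 of them without overlap, and the block fit called 1 of them, Gad2, higher (edgeR adjusted p = 0.019). Of the microglial markers, 7 of 8 were higher. Sums for 6 endothelial markers (113 to 156 and 129 to 158 CPM) and for 5 red cell genes (387 to 545 and 398 to 479 CPM) overlapped as well, with 6 of 6 endothelial markers higher and 5 of 5 red cell genes lower. No marker was at 0 in all libraries. The part of these shifts in the values below was not tested, and in whole tissue fewer cells of a type and less RNA per cell cannot be told apart.

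At an adjusted p under 0.05, edgeR's group-only fit called 0 of the 32 members, against 0.0335% of all genes tested. The fit with the letter as a block called 0 members against 0.845% of all genes, and DESeq2 called 0 against 0.174%. Without adjustment, 2 members had a p under 0.05, Idh1 and Mdh2, both lower in knockouts. Of all genes, 7% had an unadjusted p under 0.05 in either direction, and 3.81% were lower at that level. Log2 changes (knockout minus control) lay between -0.71 for Sdhd and 0.11 for Mpc1, with a median of -0.035 over the members and 0.0011 over all genes tested. Lower values in knockouts were found for 21 members, or 65.6%, against 49.8% of all genes. Within the letters the median member difference was -0.059 for A, 0.012 for B and -0.12 for C, so letter B did not share the lower median.

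The size of change that these libraries allow was narrow for most of the cycle. For 29 of the 32 members the 95% interval of the change lay within 1.5-fold in either direction, and its ends were a median of 0.24 from the estimate on the log2 scale. The 3 exceptions were Sdhd, Suclg2 and Mpc1. Differences inside these intervals were not resolved, so the members are not shown to be equal between the genotypes.

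**Figure D1:**
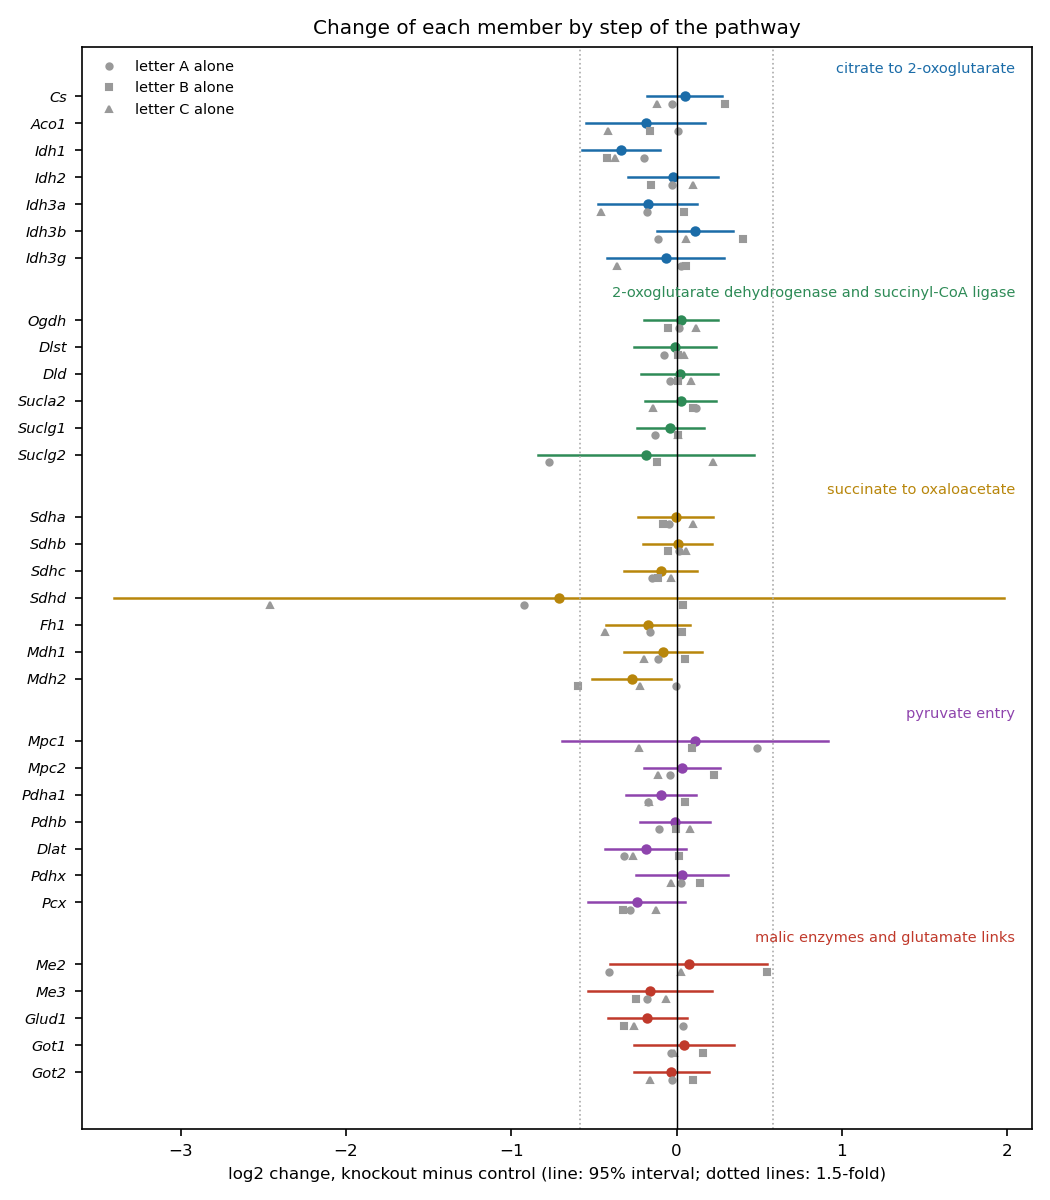
Log2 change (x axis, knockout minus control) of each of the 32 members (y axis), grouped by step of the pathway. Coloured points and lines are the group-only estimate and its 95% interval, grey symbols the difference within letter A, B or C, and dotted lines 1.5-fold. The intervals of Idh1 and Mdh2 lie below 0, and that of Sdhd runs from -3.40 to 1.98.

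The first steps of the cycle turn oxaloacetate and acetyl-CoA into citrate and then 2-oxoglutarate. Of their 7 genes, 5 were lower and 2 higher in knockouts, none past the threshold, with a median log2 change of -0.067. Idh1 encodes the cytosolic, NADP-dependent isocitrate dehydrogenase, a source of cytosolic NADPH, and had the smallest p of all members. The gene lies on chromosome 1 from 65158616 to 65186500 on the reverse strand of GRCm38. Its level was 306, 380 and 385 CPM in controls and 267, 284 and 297 CPM in knockouts. All 3 knockouts were below all 3 controls, and the knockout was below its control in each letter. Means were 357 ± 43.8 CPM in controls and 283 ± 15.1 CPM in knockouts (SD, n = 3), and the log2 change was -0.34 ± 0.11 (SE; 95% interval -0.57 to -0.10; unadjusted p = 0.0079, adjusted p = 0.526 by edgeR over 14913 genes). With the letter as a block the adjusted p was 0.0765 and in DESeq2 it was 0.379, both above the threshold.

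Idh2, the mitochondrial NADP-dependent counterpart of Idh1, stood at 45.5, 55.7 and 55.5 CPM in controls and 44.7, 50.1 and 59.5 CPM in knockouts. Its groups overlapped fully, with a log2 change of -0.022 ± 0.13 (SE). The log2 ratio of Idh1 to Idh2 within a library was 2.75, 2.77 and 2.79 in controls and 2.58, 2.50 and 2.32 in knockouts. The SD was 0.020 in controls and 0.13 in knockouts, and every knockout was below every control. An SD of 3 values is itself imprecise, and Idh2 rests on 449 to 545 reads per control library. The difference of the group means was -0.31, with p = 0.1 in an exact two-sided permutation test, the smallest that 3 against 3 libraries can give, and an adjusted p of 0.825 over the 11 gene pairs compared. This exact test cannot pass a threshold of 0.05 with so few libraries.

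Promoter sequences are given for the member and the pathway gene with the smallest p, Idh1 and Pck2, so that the letters behind the motif counts can be seen. RefSeq windows on GRCm38.p6, from 250 bases before to 50 after each gene start, were available for 29 of the 32 members, and each motif was searched on both strands. The shown bases lie before the GENCODE gene start and read 5′ to 3′ on the gene's strand, chr1:65186501-65186729 (reverse strand) for Idh1 and chr14:55540016-55540265 (forward strand) for Pck2, with motif matches in capitals.
Idh1: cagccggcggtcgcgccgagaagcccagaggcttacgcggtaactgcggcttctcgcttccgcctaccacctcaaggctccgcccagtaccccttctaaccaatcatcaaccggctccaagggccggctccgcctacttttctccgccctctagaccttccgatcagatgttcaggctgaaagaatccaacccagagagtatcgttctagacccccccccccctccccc
Pck2: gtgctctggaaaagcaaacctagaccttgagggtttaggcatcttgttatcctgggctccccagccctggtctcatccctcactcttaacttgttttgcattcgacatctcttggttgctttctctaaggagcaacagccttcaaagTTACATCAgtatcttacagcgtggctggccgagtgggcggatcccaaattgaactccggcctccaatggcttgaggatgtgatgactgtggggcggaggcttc
The Idh1 stretch holds none of the 4 motifs searched. The Pck2 window holds 1 match, TTACATCA, which starts 103 bases before the gene start and is the reverse strand of TGATGNAA, the form bound by ATF4 with a C/EBP partner. Among members, Got1 and Me3 held that motif (2 of 29, against 4.51% of all 27025 genes in the table). GCATGCGC, the core of the nuclear respiratory factor palindrome, was in 3 members, Glud1, Ogdh and Sdhb (3.05% of all genes). AAGGTCA, a site of estrogen-related receptors, was in Got1, Ogdh and Sdhd (5.38% of all genes), and TCACNCCAC, a sterol response element, was in none (1.44% of all genes). Ogdh was searched in 6 windows, while most members had 1, so it had more chances of a match. The shares of all genes rest on 32851 windows for 27025 genes. None of the 4 motifs contains another, and a match describes only these letters.

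The NAD-dependent mitochondrial isocitrate dehydrogenase is built of a catalytic subunit, Idh3a, with Idh3b and Idh3g. Idh3a was at 68.9, 81.6 and 76.8 CPM in controls and 60.8, 84.1 and 56.0 CPM in knockouts. Knockouts A and C were below all controls and knockout B was above them, with a log2 change of -0.18 ± 0.14 (SE; adjusted p = 0.850 by edgeR). Idh3b went the other way, with 100.05, 79.9 and 92.8 CPM in controls and 92.6, 105 and 96.6 CPM in knockouts. Its groups overlapped, and the log2 change was 0.11 ± 0.11 (SE). The log2 ratio of Idh3a to Idh3b was lower in the knockout of each letter, with a difference of -0.31 in the group means (exact permutation p = 0.2, adjusted 0.825). The log2 change of Idh3g, an X-linked gene, was -0.067 ± 0.16 (SE), and its highest libraries were control B at 65.5 CPM and knockout B at 68.2 CPM. Those were also the libraries with Xist, an RNA made from the inactive X in females, at 918 and 961 CPM, while the other 4 had at most 2.95 CPM. Pdha1, also X-linked, did not share this order. Its control B was the lowest control at 135 CPM and its knockout B the highest knockout at 140 CPM. The part of Xist or sex in these values was not tested.

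Citrate synthase (Cs), which opens the cycle, had a log2 change of 0.050 ± 0.11 (SE). Aco1 encodes the cytosolic aconitase, which also acts as an iron-responsive RNA-binding protein. It was at 29.8, 45.8 and 38.6 CPM in controls and 29.9, 41.0 and 28.9 CPM in knockouts. Control A was as low as knockouts A and C, so the groups overlapped, and the log2 change was -0.19 ± 0.17 (SE).

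The middle of the cycle, from 2-oxoglutarate to succinate, was the part nearest to 0. Its 6 genes had a median log2 change of 0.0040, with 3 lower and 3 higher and none past the threshold. Ogdh and Dlst, the first and second components of 2-oxoglutarate dehydrogenase, had log2 changes of 0.029 and -0.0095. Dld, the third component, which pyruvate dehydrogenase shares, had a log2 change of 0.018. Suclg1, the common subunit of succinyl-CoA ligase, had -0.040. The ligase uses ADP or GDP according to its other subunit, Sucla2 or Suclg2. Sucla2 was at 81.6, 77.9 and 86.3 CPM in controls and 88.4, 83.6 and 78.1 CPM in knockouts, and its groups overlapped (log2 change 0.025 ± 0.10, SE). Suclg2 was far less abundant, at 3.02, 2.73 and 2.85 CPM in controls and 1.75, 2.50 and 3.32 CPM in knockouts. The knockouts spread to both sides of the controls (log2 change -0.18 ± 0.31, SE), on 17 to 32 reads per library. The log2 ratio of Sucla2 to Suclg2 was 4.73, 4.81 and 4.89 in controls and 5.62, 5.03 and 4.53 in knockouts, a difference of 0.25 in the means (exact permutation p = 0.6).

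From succinate to oxaloacetate, 6 of 7 genes were lower in knockouts and 1 was higher, with a median log2 change of -0.097 and none past the threshold. Mdh2 encodes the mitochondrial malate dehydrogenase that closes the cycle, and lies on chromosome 5 from 135778480 to 135790398 on the forward strand. It was at 697, 851 and 731 CPM in controls and 696, 562 and 628 CPM in knockouts. No knockout reached a control, but control A and knockout A were almost equal and the gap came from letters B and C. The log2 change was -0.27 ± 0.11 (SE; 95% interval -0.51 to -0.035; adjusted p = 0.661 by edgeR and 0.234 with the letter as a block). Mdh1, the cytosolic partner of Mdh2 in the malate-aspartate shuttle, stood at 228, 216 and 202 CPM in controls and 211, 224 and 176 CPM in knockouts. Its groups overlapped, with a log2 change of -0.080 ± 0.11 (SE). The log2 ratio of Mdh1 to Mdh2 was -1.61, -1.98 and -1.85 in controls and -1.72, -1.33 and -1.84 in knockouts, and differed by 0.19 in the means (exact permutation p = 0.4). Fh1, fumarate hydratase, was at 84.2, 93.0 and 92.6 CPM in controls and 75.4, 95.1 and 68.6 CPM in knockouts. Knockout B was the highest of the 6 libraries and the other knockouts the lowest (log2 change -0.17 ± 0.12, SE).

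**Figure D2:**
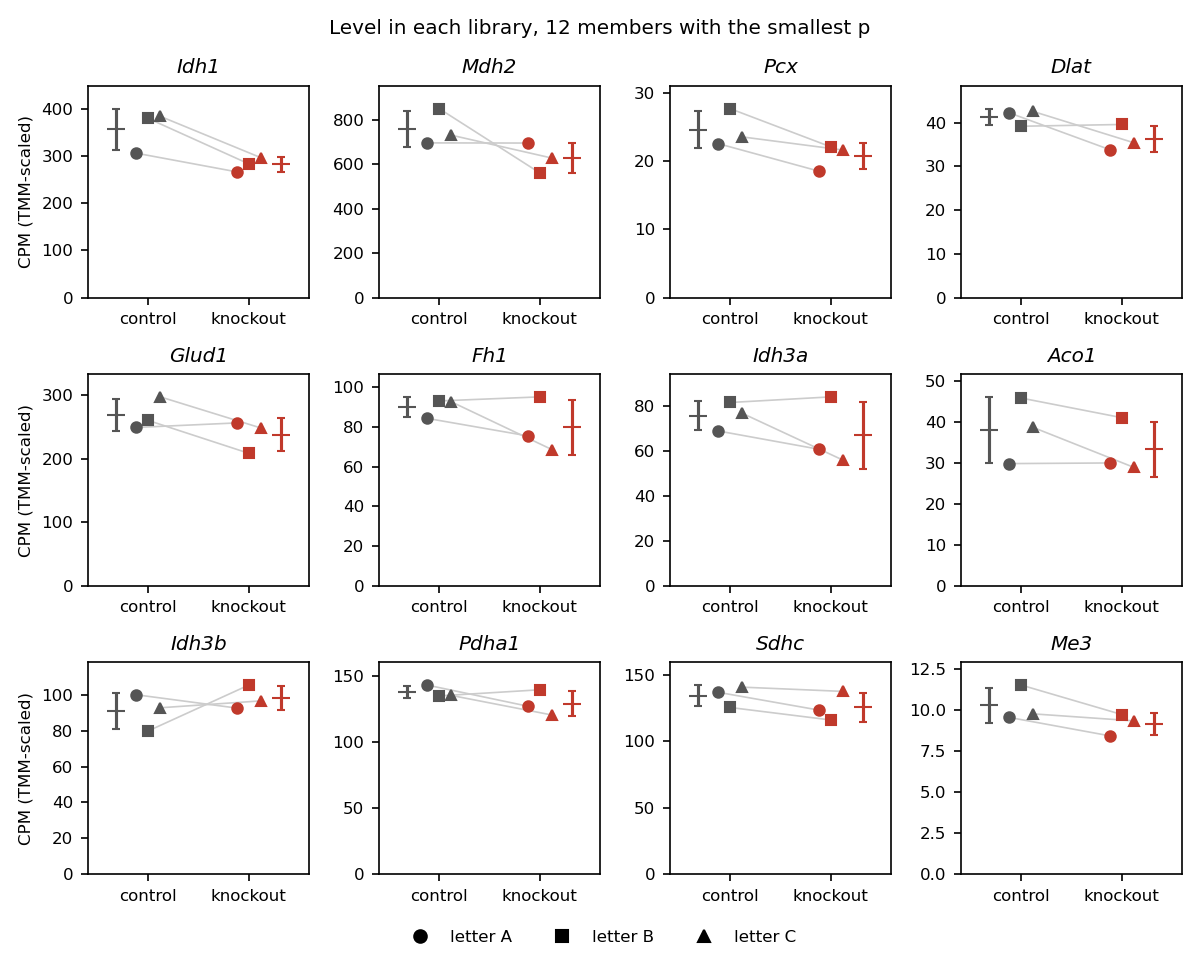
CPM (y axis, from 0) in each library for the 12 members with the smallest p, controls grey and knockouts red. Symbols mark the letter, grey lines join libraries of the same letter, and bars show the mean and SD of 3 libraries. Only Idh1, Mdh2 and Pcx have no overlap between the groups among the 12.

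The 4 subunits of succinate dehydrogenase, which is also complex II of the respiratory chain, varied in different ways. Sdha, the flavoprotein, and Sdhb, the iron-sulfur subunit, had log2 changes of -0.0052 ± 0.11 and 0.0070 ± 0.099 (SE). Sdhb was at 317, 302 and 308 CPM in controls and 320, 291 and 320 CPM in knockouts, a spread of a few percent in both groups. Sdhc, a membrane anchor, was at 137, 126 and 141 CPM in controls and 124, 116 and 138 CPM in knockouts, lower in the knockout of each letter while the groups overlapped (log2 change -0.097 ± 0.10, SE). Sdhd, the other anchor, was at 23.7, 74.2 and 70.0 CPM in controls and 12.5, 76.2 and 12.7 CPM in knockouts. Control B, control C and knockout B were high and the other 3 libraries low, so its levels split across the genotypes rather than along them. The log2 change of -0.71 ± 0.98 (SE; adjusted p = 0.935 by edgeR) was the largest in size among the members and the least precise. Without letter A, the fit with the letter as a block called Sdhd lower (log2 change -1.06, edgeR adjusted p = 3.62e-09), the only setting tried in which a member was called. The letters left in that fit disagreed, with log2 differences of 0.039 for B and -2.46 for C. The small p therefore does not show a change that both letters share. The gene lies on chromosome 9 from 50596357 to 50603812, its counts were 121 to 822 reads per library, and no other transcript with at least 97% identity to it was found in GENCODE M21.

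**Figure D3:**
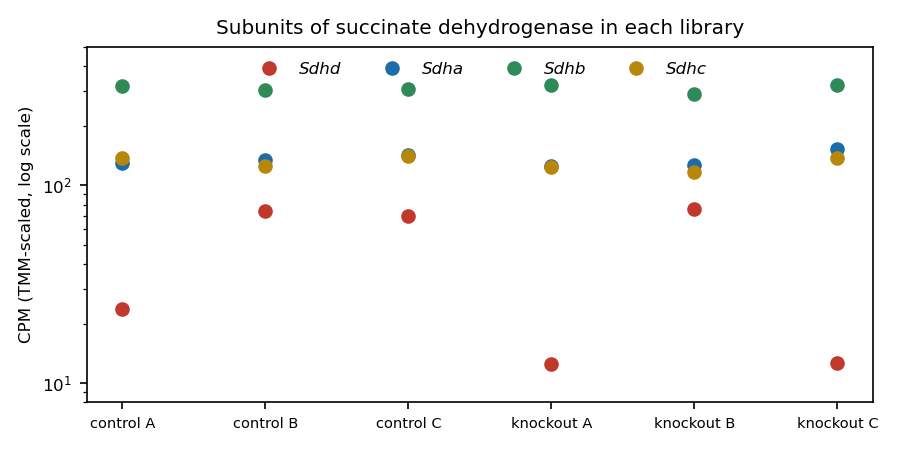
CPM (y axis, log scale) of the 4 succinate dehydrogenase subunits in each of the 6 libraries (x axis). Sdha, Sdhb and Sdhc stay nearly level, while Sdhd is between 70.0 and 76.2 CPM in control B, control C and knockout B and between 12.5 and 23.7 CPM in the other 3.

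Of the 7 genes for pyruvate entry, 4 were lower and 3 higher in knockouts, with a median log2 change of -0.0090 and none past the threshold. Pcx encodes pyruvate carboxylase, which makes oxaloacetate from pyruvate. It was at 22.5, 27.7 and 23.5 CPM in controls and 18.5, 22.1 and 21.6 CPM in knockouts. All knockouts were below all controls, the nearest pair being control A and knockout B, and the log2 change was -0.24 ± 0.14 (SE; 95% interval -0.54 to 0.051; adjusted p = 0.779 by edgeR). Idh1, Mdh2 and Pcx were the 3 of 32 members whose knockout values all lay below all control values, which held for 6.28% of all genes. No member had all knockouts above all controls, against 5.89% of all genes. The astrocyte marker sums given above overlapped between the groups, with 4 of the 6 markers lower and 2 higher in knockouts. The part of astrocytes in the Pcx values was not tested.

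Dlat, the acetyltransferase core of pyruvate dehydrogenase, was at 42.3, 39.2 and 42.6 CPM in controls and 33.9, 39.6 and 35.4 CPM in knockouts. Knockouts A and C were below every control and knockout B was not (log2 change -0.19 ± 0.12, SE). Pdha1, the X-linked catalytic subunit, was at 143, 135 and 136 CPM in controls and 127, 140 and 121 CPM in knockouts, with the same pattern of letters (log2 change -0.094 ± 0.10, SE). Its partner Pdhb and the binding protein Pdhx had log2 changes of -0.0090 and 0.033. The ratio of Pdha1 to Pdhb differed by -0.085 on the log2 scale (exact permutation p = 0.7). The mitochondrial pyruvate carrier is made of Mpc1 and Mpc2. Mpc2 had a log2 change of 0.033 ± 0.11 (SE). Mpc1 was counted at only 1.31 to 3.47 CPM in controls and 1.85 to 3.71 CPM in knockouts, on 13 to 40 reads per library (log2 change 0.11 ± 0.38, SE). Reads that map to several places were not counted, and 35.7% of the length of an Mpc1 transcript has a copy of at least 97% identity, mostly in the pseudogene Mpc1-ps.

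The same limit may touch other members. Sequence of at least 97% identity in other annotated genes covers 72.5% of a Got2 transcript, 71.2% of Pdhb and 38.7% of Suclg2. It covers 27.8% of Glud1, 21.3% of Pdha1, 9.86% of Me3 and 1.36% of Sdhc. The search covered both strands and kept genes that overlap a member at the same place, whose reads need not map to several places. The largest match was the protein-coding Map3k15 for Pdha1 and the antisense gene A230065N10Rik for Me3. How many reads were lost was not measured. No such sequence was found for the other 24 members, among them Idh1, Mdh2 and Pcx.

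Among the 5 malic enzyme and glutamate-linked genes, 3 were lower and 2 higher, with a median log2 change of -0.031 and none past the threshold. Glud1, glutamate dehydrogenase, links glutamate to 2-oxoglutarate and is abundant in astrocytes. It was at 249, 260 and 297 CPM in controls and 256, 208 and 248 CPM in knockouts. The groups overlapped through letter A, and the log2 change was -0.18 ± 0.11 (SE; adjusted p = 0.808 by edgeR). Me3, a mitochondrial malic enzyme, was at 9.56, 11.5 and 9.78 CPM in controls and 8.44, 9.74 and 9.35 CPM in knockouts, lower in the knockout of each letter with overlapping groups (log2 change -0.16 ± 0.18, SE). Me2, the NAD-dependent mitochondrial malic enzyme, had a log2 change of 0.072 ± 0.22 (SE).

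Got1 and Got2 are the cytosolic and mitochondrial aspartate aminotransferases of the malate-aspartate shuttle. Got1 was at 60.1, 73.9 and 80.9 CPM in controls and 58.8, 82.6 and 80.1 CPM in knockouts. Both letter A libraries were low, and the genotypes overlapped (log2 change 0.045 ± 0.14, SE). Got2 was at 54.0, 52.7 and 60.5 CPM in controls and 53.1, 56.5 and 54.1 CPM in knockouts (log2 change -0.031 ± 0.11, SE). The log2 ratio of Got1 to Got2 was 0.15, 0.49 and 0.42 in controls and 0.15, 0.55 and 0.56 in knockouts, and differed by 0.067 in the means (exact permutation p = 0.6). Of the remaining pairs, the log2 ratio of Me2 to Me3 differed by 0.22 (exact permutation p = 0.4), Mpc1 to Mpc2 by 0.091 (p = 1) and Sdha to Sdhb by -0.016 (p = 0.9). Pcx and Pdha1, which both act on pyruvate, differed in ratio by -0.15 (exact permutation p = 0.5). Ogdh and Glud1, which share 2-oxoglutarate, differed by 0.21 (exact permutation p = 0.3), and all 11 pairs had adjusted p of at least 0.825.

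**Figure D4:**
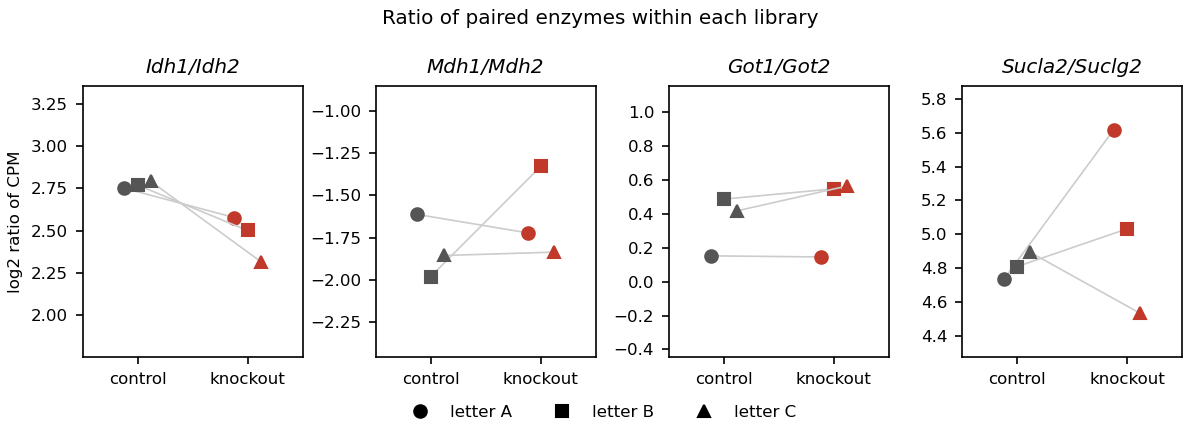
Log2 ratio of CPM (y axis, 1.6 units high in every panel) for 4 pairs of enzymes in each library, controls grey and knockouts red, symbols and lines by letter. The ratio of Idh1 to Idh2 has the 3 control values together at 2.75 to 2.79 and all knockouts below them, and the other 3 ratios overlap between the genotypes.

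Levels per length showed how unequal the members are in this tissue. In CPM per kilobase of annotated exon, Mdh2 was highest in controls at 213 ± 22.7 (SD, n = 3), followed by Sdhb at 138 ± 3.37 and Idh1 at 129 ± 15.8, and the spreads of Sdhb and Idh1 overlap. Mdh1 followed at 83.8 and Glud1 at 63.8. At the lower end were Pcx at 5.17, Mpc1 at 1.16, Me2 at 0.97, Me3 at 0.70 and Suclg2 at 0.62 CPM per kilobase. The exon length joins all annotated isoforms, so genes with long alternative exons appear lower on this scale. Since Idh1 and Mdh2 are among the most abundant, they weigh on the sum of all members, which was 3755, 3970 and 3981 CPM in controls and 3596, 3611 and 3579 CPM in knockouts. Every knockout sum was below every control sum, a difference of -7.87% in the means. Without Idh1 alone the difference was -6.56% and without Mdh2 alone -5.60%, again with no overlap. Without Idh1 and Mdh2 together, a selection made after their values were seen, the sums were 2752, 2740 and 2865 CPM in controls and 2633, 2765 and 2653 CPM in knockouts. These overlap, because knockout B was then above controls A and B.

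**Figure D5:**
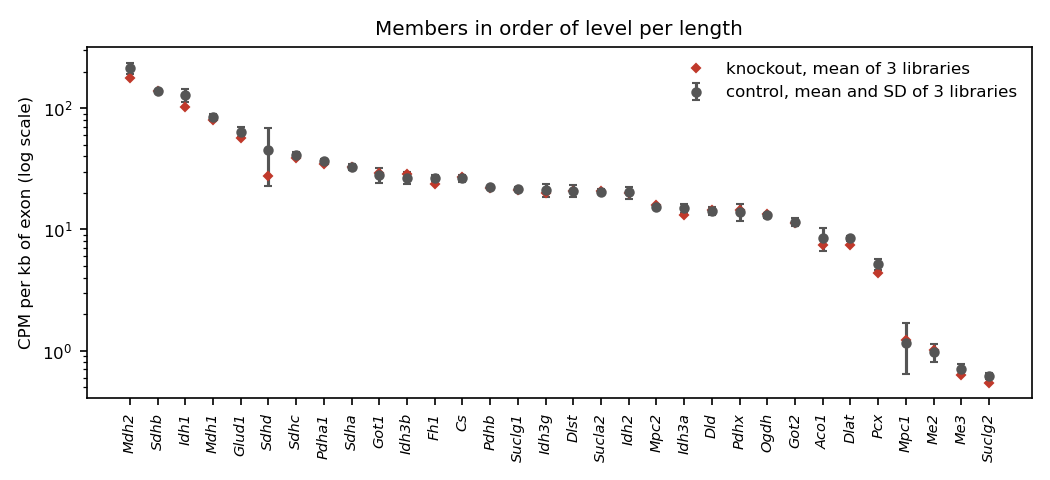
CPM per kilobase of exon (y axis, log scale) for the 32 members in order of their control mean. Grey points and bars are the mean and SD of 3 controls and red diamonds the mean of 3 knockouts. Levels run from 213 for Mdh2 to 0.62 for Suclg2.

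A list of 48 other genes of the pathway, such as regulatory kinases and phosphatases, lipoate and iron-sulfur factors, mitochondrial carriers and enzymes that draw on cycle intermediates, gave a similar picture. Of the 45 that could be tested, 0 were called by edgeR with or without the block or by DESeq2, 5 had an unadjusted p under 0.05 (7% of all genes did), 27 were lower and 18 higher, and the median log2 change was -0.076. Groups did not overlap for 7 lower and 2 higher genes, against 6.28% and 5.89% of all genes. The summed level of the list was 1815 to 1911 CPM in controls and 1778 to 1804 CPM in knockouts, without overlap as for the members. Pdk4 and Ogdhl were too low to test, and Pck1 was at 0 in all libraries. The smallest p belonged to Pck2, the mitochondrial phosphoenolpyruvate carboxykinase, which withdraws oxaloacetate from the cycle and is a known target of the stress factor ATF4. Pck2 was at 7.35, 5.21 and 7.13 CPM in controls and 12.8, 10.9 and 8.52 CPM in knockouts. All knockouts were above all controls, and the log2 change was 0.70 ± 0.21 (SE; adjusted p = 0.462 by edgeR and 0.0713 with the letter as a block). The next 3 were lower in knockouts. Nfu1, an iron-sulfur carrier that serves lipoate synthesis, had a log2 change of -0.33 ± 0.12 (SE), the lipoyltransferase Lipt1 -0.87 ± 0.34 and the glutaminase Gls2 -0.69 ± 0.31, with edgeR adjusted p of 0.574, 0.638 and 0.708.

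For comparison, 13 tested genes of glycolysis had a median log2 change of -0.065, with 9 lower, and 83 tested subunits of the respiratory chain had -0.0092, with 45 lower. In both lists edgeR, with or without the block, and DESeq2 called 0 genes. An unadjusted p under 0.05 was found for 2 glycolytic and 3 respiratory genes in the group-only fit, or 2 and 8 with the block. Of all 14913 genes tested, 1044 had such a p in the group-only fit and 1774 with the block. The summed level of the respiratory chain list was also lower without overlap, at 15114 to 15292 CPM in controls and 14501 to 14659 CPM in knockouts. That of glycolysis overlapped, at 1188 to 1280 and 1114 to 1214 CPM. No difference between these lists and the members was tested.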

How the data were processed

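Polyadenylated RNA of 6 cortical hemispheres was sequenced on an Illumina HiSeq 2500 from libraries made with the Lexogen SENSE kit, per the labels' protocols. The authors deposited unnormalised counts of reads per gene, in 1 table per library with the summary lines that STAR writes. Per the submitters' processing notes, STAR 2.5.4 and the builds mm10 and GRCm38 were used, and the annotation is not given in the sources used here. The 4 summary lines were left out. Counts were taken from the strand that held most reads, and their sum per library gives the depth.

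Symbols, coordinates and exon lengths came from GENCODE M21 on GRCm38, which held 52403 of the 52550 identifiers. In R 4.3.3, edgeR 4.0.16 was used with filterByExpr, TMM scaling and a robust quasi-likelihood F-test, two-sided, adjusted by the Benjamini-Hochberg method over 14913 genes at 0.05. The SE is the change divided by the square root of F. Gene pairs were compared by exact two-sided permutation tests in SciPy 1.17.1 on log2 CPM with a prior count of 0.5. Alternatives were a replicate block by letter, DESeq2 1.42.0, another scaling, no filter, counts on either strand and leaving out libraries.

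Libraries of the same letter deviated from their group means together (correlation across genes 0.452, 0.393 and 0.254 for A, B and C). Those of different letters had values of at most -0.048. Taking deviations from group means forces the latter below 0 on average when the former are above 0, so they add no separate evidence. Control B and knockout B were also the libraries with high Xist, and its part in the letter B value was not tested. The letter was used as a block in an alternative fit only, and no label states what a letter stands for. The design planned without the letter was kept: changes, intervals and p-values are from that group-only fit, and permutation tests are unpaired, unless the block is named. No libraries of the same group agreed within sampling noise, so each was counted as 1 replicate. Libraries of different groups were not compared in this way, and the check does not show that the libraries come from separate animals.

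The members and the gene lists were chosen with earlier results of these data known. Named genes were Slc7a5, every member with its log2 change, and the 4 other pathway genes with the smallest p. Values in every library were given for the 12 members with the smallest p and both genes of 4 isozyme pairs, and for Sdhd, Sdhb and the genes that follow Sdhd after their values were seen. One result for a marker gene is not reported here.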

Additional observations from a re-analysis of the deposited data

How the results depend on the processing

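The replicate block, with the letter as a term, changed no call among the members or the other pathway genes, and gave a median log2 change of members of -0.035. With all 6 libraries no other setting (DESeq2, RLE scaling, no filter, either strand) called a member or turned a direction. The median stayed between -0.042 and -0.033 in those settings, between -0.079 and -0.021 when 1 library was left out, and at -0.031 without Sdhd, an alternative chosen after seeing the data. In the block fit with both libraries of a letter left out, members called lower ranged from 0 to 1 (Sdhd, without A) and calls among other pathway genes from 0 to 1. Those were Slc25a22 (log2 change -0.41, adjusted p = 0.0462 by edgeR) without B and Pck2 (0.92, adjusted p = 0.0428 by edgeR) without C. Counting on either strand left Mpc1 below the filter, so its ratio to Mpc2 has no value there. Of the members, Aco1, Idh1, Idh3a, Sdhc, Sdhd, Fh1, Mdh2, Pdha1, Dlat, Pcx, Me3 and Glud1 kept their direction in every setting. The others turned when libraries were left out, in 1 fit or both. Leaving out 1 library, log2 changes ran from -0.016 to 0.12 for Cs, -0.14 to 0.069 for Idh2, -0.26 to 0.094 for Idh3g, -0.037 to 0.076 for Ogdh, -0.096 to 0.076 for Dlst and -0.013 to 0.077 for Dld. They ran from -0.020 to 0.067 for Sucla2, -0.43 to 0.016 for Suclg2, -0.10 to 0.044 for Sdha, -0.018 to 0.053 for Sdhb, -0.15 to 0.012 for Mdh1 and -0.071 to 0.044 for Pdhb. Further ranges were -0.089 to 0.12 for Pdhx, -0.15 to 0.22 for Me2, -0.069 to 0.18 for Got1, -0.067 to 0.030 for Got2, -0.27 to 0.45 for Mpc1 and -0.069 to 0.11 for Mpc2. In the block fit without a letter they ran from -0.069 to 0.13 for Cs, -0.091 to 0.044 for Idh2, -0.022 to 0.23 for Idh3b, -0.16 to 0.042 for Idh3g, -0.020 to 0.071 for Ogdh and -0.035 to 0.030 for Dlst. Without a letter, others ran from -0.016 to 0.055 for Dld, -0.016 to 0.11 for Sucla2, -0.063 to 0.013 for Suclg1, -0.44 to 0.065 for Suclg2, -0.063 to 0.031 for Sdha and -0.020 to 0.040 for Sdhb. The last ran from -0.058 to 0.042 for Pdhb, -0.20 to 0.30 for Me2, -0.018 to 0.079 for Got1, -0.089 to 0.036 for Got2, -0.046 to 0.25 for Mpc1 and -0.069 to 0.093 for Mpc2. Ratios of pairs without 1 library ran from -0.033 to 0.20 for Got1 to Got2, -0.029 to 0.51 for Sucla2 to Suclg2, -0.30 to 0.41 for Mpc1 to Mpc2, -0.14 to 0.021 for Pdha1 to Pdhb and -0.082 to 0.056 for Sdha to Sdhb. Mpc1 and Suclg2 rest on 13 to 40 and 17 to 32 reads per library, and Sdhd, with the widest interval of the members, on 121 to 822.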

Other observations

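The split of the libraries seen for Sdhd was followed across all genes after its values had been seen, as a description with no test. Control B, control C and knockout B were the 3 highest libraries for 1321 of the 14913 genes tested (8.86%) and for 6 of the 32 members (18.8%), Aco1, Fh1, Idh3a, Me3, Mpc1 and Sdhd. Sdhd meets this rule by construction, since the libraries were taken from its own order, and Mpc1 rests on 13 to 40 reads per library. The same libraries were the 3 lowest for 1304 genes (8.74%) and for the members Dld and Sdhb. A narrower set of 8 genes on 7 chromosomes followed Sdhd closely, chosen by a Pearson correlation with Sdhd of log2 CPM of at least 0.98 in size over the 6 libraries and an SD of at least 0.5. Among them, Snhg6, a host gene of small nucleolar RNAs, was at 67.3, 167 and 174 CPM in controls, in the order A, B, C, and 35.0, 198 and 42.5 CPM in knockouts. Rnf5, a ubiquitin ligase of the endoplasmic reticulum, was at 32.7, 80.4 and 70.6 CPM in controls and 24.0, 70.7 and 21.1 CPM in knockouts. Ppm1h, a phosphatase, was at 17.9, 31.3 and 30.6 CPM in controls and 13.5, 31.5 and 13.3 CPM in knockouts. What these 3 libraries share is not given in the labels.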
